A study of Mus musculus with 12 samples.

Results

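The comparison set 3 libraries of vinorelbine-resistant PB3 cells (VIN-R) against 3 libraries of untreated parental PB3 cells (Control), 6 of the 12 libraries of the series. The libraries were chosen by their labels and all expressed genes were tested, while many of the genes named were chosen by their results. PB3 is a mouse breast cancer cell line labelled as lacking the estrogen receptor, the progesterone receptor and HER2. VIN-R cells were derived from PB3 by vinorelbine at 300, 500 and 800 nM, and the Control cells (PB3-Parental) carry the label untreated. The other 6 libraries came from derivatives selected with eribulin (ERI-R, also spelled erubilin in the labels) or paclitaxel (PAC-R) at the same 3 concentrations. All cells were grown in DMEM/F12 with 5% ABS, an abbreviation the labels do not spell out. The labels speak of resistant clones, but do not say how many clones a line holds, whether the drug was present at harvest, or whether the 3 replicates were separate cultures. The p-values therefore measure only the spread between these samples, which may be technical. The series is titled as work on the mesenchymal-epithelial transition and drug response, and this comparison asks which transcripts differ in cells selected with vinorelbine.

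Vinorelbine is a vinca alkaloid that binds tubulin and blocks the growth of microtubules, the filaments that form the mitotic spindle. Cells selected with such drugs have been known to carry more P-glycoprotein, the export pump that mouse cells encode in Abcb1a and Abcb1b, or a changed mix of beta-tubulin isotypes. Breast cancer cells also move between an epithelial state, with E-cadherin junctions, and a mesenchymal state, with vimentin and N-cadherin.

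Polyadenylated RNA was read in pairs of 76 bases, and the libraries summed to between 11229321 and 13454395 expected counts (read pairs assigned to genes by RSEM). Levels are given as CPM, counts scaled to the size of each library and, by the TMM method, between libraries. A share of the libraries held RNA of macrophages. Lyz2, the lysozyme of macrophages, stood at 0 CPM in Control 1 and VIN-R 3, at 712 and 285 CPM in Control 2 and 3, and at 182 and 1389 CPM in VIN-R 1 and 2. The 26 macrophage markers summed to 19.9 and 35.7 CPM of all counts in the libraries without Lyz2, to 4654 and 1908 in the other Control libraries and to 1326 and 7502 in the other VIN-R libraries. Each group thus had 2 libraries with macrophage RNA and 1 without, and its presence was a term of the fit. Of markers of other cells, 6 of 18 genes of other leukocytes (Cd3e of T cells among them), 2 of 15 of endothelium and pericytes (Cldn5 and Tie1), 1 of 15 of fibroblasts, and 9 of 16 of fat, red cells and muscle were at 0 in all 6. The fibroblast markers summed to between 118 and 251 CPM of all counts, and those of endothelium and pericytes to 94.7, 99.4 and 66.2 in Control and 45.1, 45.6 and 23.1 in VIN-R. Mitochondrial transcripts took 2.45%, 3.45% and 4.09% of the Control counts and 4.35%, 3.85% and 1.76% of the VIN-R counts. As for the label, the simple keratins Krt8 and Krt18 and the filament gene Vim were abundant in all 6 libraries (at least 525, 742 and 2431 CPM), while the epithelial genes Cdh1 and Epcam were at most 12.9 and 10.2 CPM.

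Few genes passed the test between VIN-R and Control. Of 14227 genes tested, 1 was higher (0.00703%) and 2 were lower (0.0141%) in VIN-R at an adjusted p under 0.05 by edgeR's quasi-likelihood test with Benjamini-Hochberg adjustment over all genes. These were Tnfrsf26, Ildr2 and Myh10. The counts rose to 9 higher and 12 lower when the 3 ERI-R libraries were left out of the fit, and to 10 and 19 when only ERI-R 3 was. At an unadjusted p under 0.05, edgeR gave 246 higher (1.73%) and 438 lower (3.08%) genes, 4.81% in all. DESeq2, on the same libraries and covariate, called 41 genes higher (0.288%) and 78 lower (0.548%) at an adjusted p under 0.05, among them the 3 of edgeR. The counts thus depend on the tool and on the libraries in the fit, and each statement below names the one it rests on. The fitted log2 fold changes had a median of 0.01 over all genes. The median half-width of their 95% intervals was 0.79, and for 6699 genes the whole interval lay within 1 log2 unit of no difference. VIN-R lay above Control in every library for 494 genes (3.47%) and below it for 723 (5.08%), 8.55% together.

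**Figure D1:**
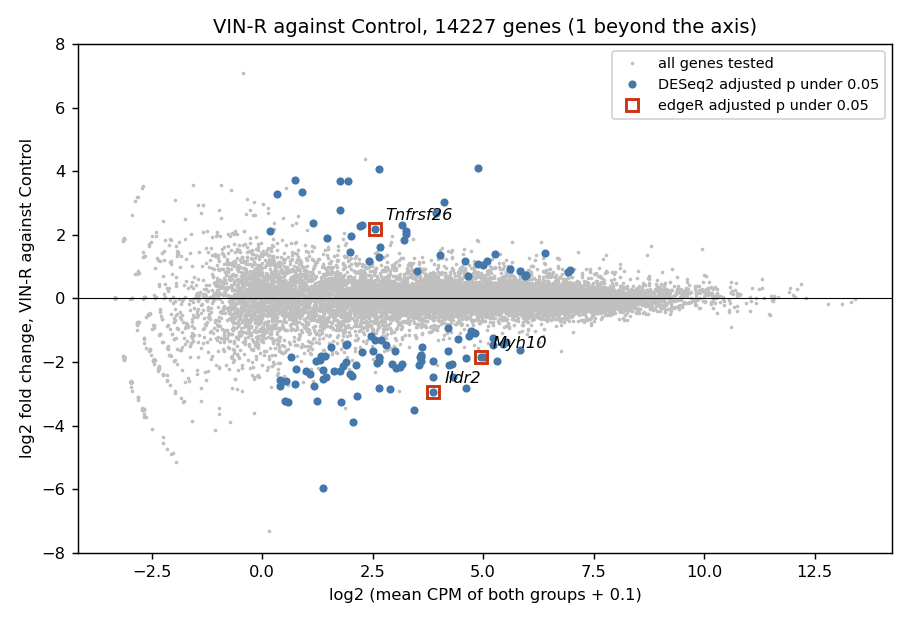
Log2 fold change of VIN-R against Control (vertical axis) against log2 of the mean CPM of both groups plus 0.1 (horizontal axis) for the 14227 genes tested. Of the 119 genes called by DESeq2 (filled blue points), 78 lie below 0 and 41 above it, and the 3 genes called by edgeR (open squares) are named.

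Ildr2, Myh10 and Tnfrsf26 were the genes that both tools called, and each differed by a similar amount with and without macrophage RNA. Ildr2 encodes a membrane protein of the immunoglobulin-like domain containing receptors, whose relatives Lsr and Ildr1 sit where 3 epithelial cells meet. It stood at 35.6, 20.7 and 21.0 CPM in Control 1 to 3 and at 3.10, 2.83 and 3.99 CPM in VIN-R 1 to 3. The groups did not overlap, and Ildr2 fell by 2.94 on the log2 scale (SE 0.37, edgeR adjusted p = 0.042, DESeq2 adjusted p = 1.6e-17). The difference was -3.13 between the libraries without macrophage RNA, Control 1 and VIN-R 3, and -2.78 between the means of the other 4. The gene lies at chr1:166254139-166316823 on the plus strand of GRCm38.

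Myh10 encodes the heavy chain of non-muscle myosin IIB, a motor of the actin cortex. Its levels were 60.9, 42.1 and 42.4 CPM in Control and 9.79, 13.1 and 18.2 CPM in VIN-R. Again no library of a group reached the other, and Myh10 fell by 1.83 on the log2 scale (SE 0.22, edgeR adjusted p = 0.042, DESeq2 adjusted p = 6.2e-13). The pair without macrophage RNA gave -1.74 and the other libraries -1.89. Its paralog Myh9, the heavy chain of myosin IIA, had 2169 ± 570 CPM in Control and 2089 ± 999 CPM in VIN-R (SD, n = 3 each), and its log2 fold change was -0.09 with a 95% interval from -0.97 to 0.79. Myh10 lies at chr11:68691559-68816632 on the plus strand. Ntn1, the guidance protein netrin-1 encoded nearby on the same chromosome, stood at 10.1 ± 1.07 CPM in Control and 3.74 ± 0.945 CPM in VIN-R (SD, n = 3 each), and DESeq2 alone called it lower (adjusted p = 4.0e-04, edgeR adjusted p = 0.14).

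Tnfrsf26 belongs to the tumour necrosis factor receptor family and is encoded on chromosome 7 beside Tnfrsf22 and Tnfrsf23, decoy receptors for the death ligand TRAIL in mice. Tnfrsf26 had 1.88, 2.35 and 2.01 CPM in Control and 9.71, 9.96 and 8.64 CPM in VIN-R. It rose by 2.18 on the log2 scale (SE 0.27, edgeR adjusted p = 0.042, DESeq2 adjusted p = 6.7e-10), and the groups did not overlap. The log2 difference was 2.15 without and 2.14 with macrophage RNA. Tnfrsf22 and Tnfrsf23, which are far more abundant per length (49.9 and 85.8 TPM in Control against 1.15 TPM of Tnfrsf26), had log2 fold changes of 0.05 and 0.19, with intervals from -0.45 to 0.55 and from -0.35 to 0.73. The 3 genes are related in sequence, and the assignment of shared reads between them by RSEM was not tested. Tnfrsf26 lies at chr7:143607659-143628722 on the minus strand.

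All 3 edgeR calls were lost whenever 1 of the 6 libraries was left out: the edgeR adjusted p then ranged from 0.166 to 0.3495 for Ildr2, from 0.138 to 0.3495 for Myh10 and from 0.166 to 0.416 for Tnfrsf26. The fold changes moved little, from -3.02 to -2.72 for Ildr2, from -1.97 to -1.68 for Myh10 and from 2.08 to 2.26 for Tnfrsf26 over 19 alternatives.

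**Figure D2:**
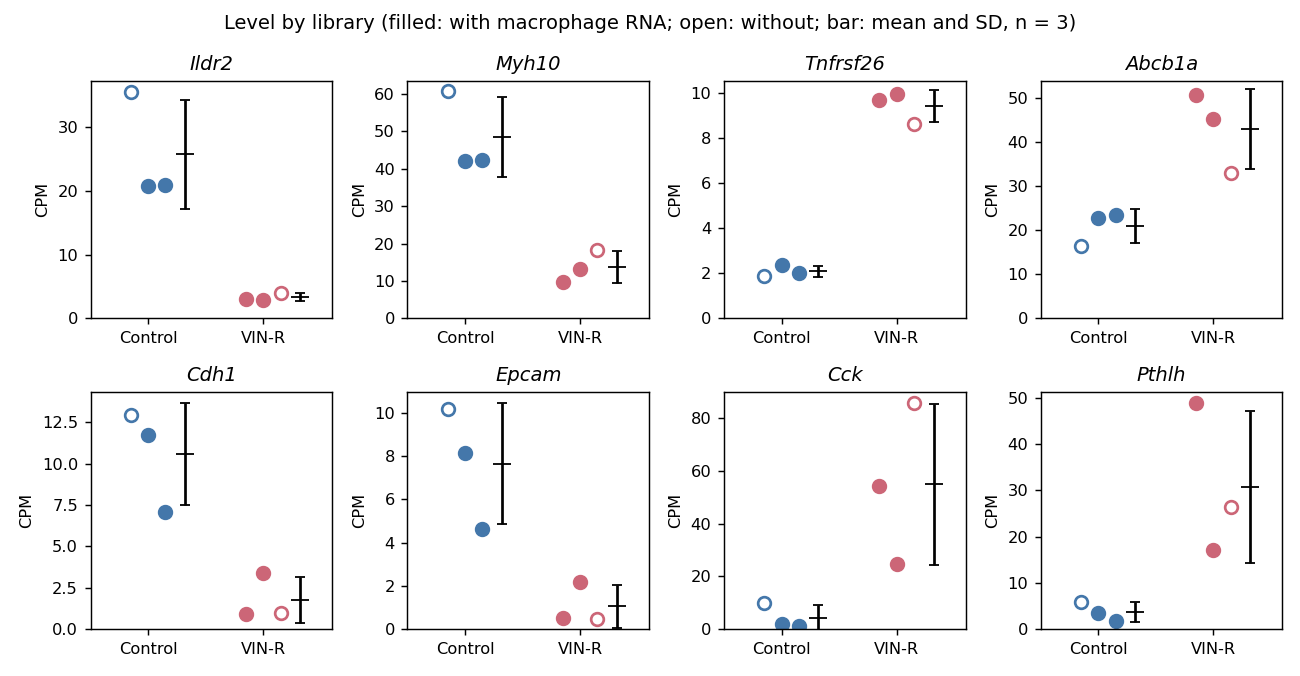
CPM by library of 8 genes in Control and VIN-R. Filled points are libraries with macrophage RNA, open points those without, and black bars give the mean and SD of the 3 libraries (cut at 0). The groups do not overlap for any of the 8, a condition of the choice for all but the preset Abcb1a, Cdh1 and Epcam. The first 3 genes were called by edgeR.

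Among the drug export pumps, Abcb1a was the gene that DESeq2 called. Abcb1a, 1 of the 2 mouse P-glycoprotein genes, had 16.4, 22.7 and 23.4 CPM in Control and 50.7, 45.3 and 33.0 CPM in VIN-R, without overlap. The log2 fold change was 1.04 with a 95% interval from 0.41 to 1.67. DESeq2 called it (adjusted p = 0.0145) and edgeR did not (adjusted p = 0.43). The edgeR call appeared when the 3 ERI-R libraries were left out of the fit (adjusted p = 0.039). The log2 difference was 1.00 between the libraries without macrophage RNA and 1.05 between the others.

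Abcb1b, the other P-glycoprotein gene, had 60.2, 69.5 and 71.3 CPM in Control and 88.7, 107 and 90.2 CPM in VIN-R. Its libraries did not overlap either, but neither tool called it (log2 fold change 0.52, interval -0.13 to 1.16, edgeR adjusted p = 1). Per length, Abcb1b was the more abundant of both, at 33.0 ± 3.05 TPM in Control and 40.3 ± 7.26 in VIN-R, against 8.40 ± 1.93 and 18.3 ± 5.82 TPM of Abcb1a (SD, n = 3 each). The copies are similar in sequence and share reads, so the division between them is uncertain. The 27 tested neighbours of both genes on chromosome 5 had a median log2 fold change of -0.06. Either tool called 0 of them, and 1 was lower at an unadjusted p under 0.05 (all genes 3.08%).

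The remaining pumps gave no call. Abcc1, the glutathione-conjugate exporter MRP1, had a log2 fold change of 0.15 (interval -0.79 to 1.10), and Abcg2, the breast cancer resistance protein, of -0.32 (interval -1.13 to 0.48). Of 31 ABC transporters tested, edgeR called 0 and DESeq2 called 1 higher, Abcb1a (all genes 0.288%). At an unadjusted p under 0.05 there were 1 higher (all genes 1.73%) and 1 lower (all genes 3.08%), and the list's median of 0.13 stood beside 0.01 for all genes.

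No tubulin gene was called by either tool among 15 tested, and 1 was lower at an unadjusted p under 0.05 (all genes 3.08%). That was Tubb2b, a beta-tubulin of neurons and of some tumours, with 95.03, 97.5 and 59.3 CPM in Control and 46.9, 20.9 and 67.7 CPM in VIN-R. VIN-R 3 lay above Control 3, and the log2 fold change was -0.97 (interval -1.78 to -0.16, edgeR adjusted p = 0.84). Tubb3, the class III isotype often studied in resistance to microtubule drugs, had 7.14 ± 2.10 CPM in Control and 3.96 ± 2.19 CPM in VIN-R (SD, n = 3 each), with a log2 fold change of -0.96 (interval -2.23 to 0.31). The common isotype Tubb5 gave -0.02 (interval -0.77 to 0.73), Tubb2a -0.03 (interval -0.97 to 0.90) and Tubb6 0.35 (interval -0.47 to 1.18). These genes share long coding stretches, so reads may be divided wrongly among them.

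The mix of isotypes was then read per length. Tubb5 made up 53.1%, 56.9% and 59.5% of all beta-tubulin TPM in Control and 57.7%, 56.5% and 48.3% in VIN-R. Tubb2b took 4.57%, 5.28% and 5.41% in Control and 2.56%, 2.15% and 2.63% in VIN-R, and Tubb3 took 0.415%, 0.565% and 0.523% against 0.318%, 0.353% and 0.276%. Both minor isotypes thus had a smaller share in every VIN-R library than in every Control library. An exact two-sided permutation test gave p = 0.10 for each, the smallest that 3 against 3 libraries allow (0.30 adjusted over 6 isotypes).

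Of 35 genes of microtubule-binding proteins tested, 24 had negative fold changes (6877 of all 14227 genes), with a median of -0.12 (all genes 0.01). Of the 35, 5 were lower at an unadjusted p under 0.05 (all genes 3.08%), 4 lay below Control in every library (all genes 5.08%) and edgeR called 0. Camsap3, which holds microtubule minus ends in epithelial cells, was the 1 gene of this list that DESeq2 called, as lower (all genes 0.548%). It had 2.11 ± 0.90 CPM in Control and 0.35 ± 0.31 CPM in VIN-R (SD, n = 3 each, DESeq2 adjusted p = 0.0115, edgeR adjusted p = 0.43). Map7, a kinesin-1 recruiter, had 4.12 ± 0.59 and 2.201 ± 0.138 CPM, and Dclk1, the doublecortin-like kinase, 6.78 ± 0.845 and 3.31 ± 0.14 CPM (SD, n = 3 each), without overlap and without a call. Stmn1, the tubulin-sequestering stathmin, had a log2 fold change of -0.19 (interval -1.01 to 0.63). None of the 39 mitosis and spindle checkpoint genes was called by either tool, and 0 had an unadjusted edgeR p under 0.05. Their median was -0.03.

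**Figure D3:**
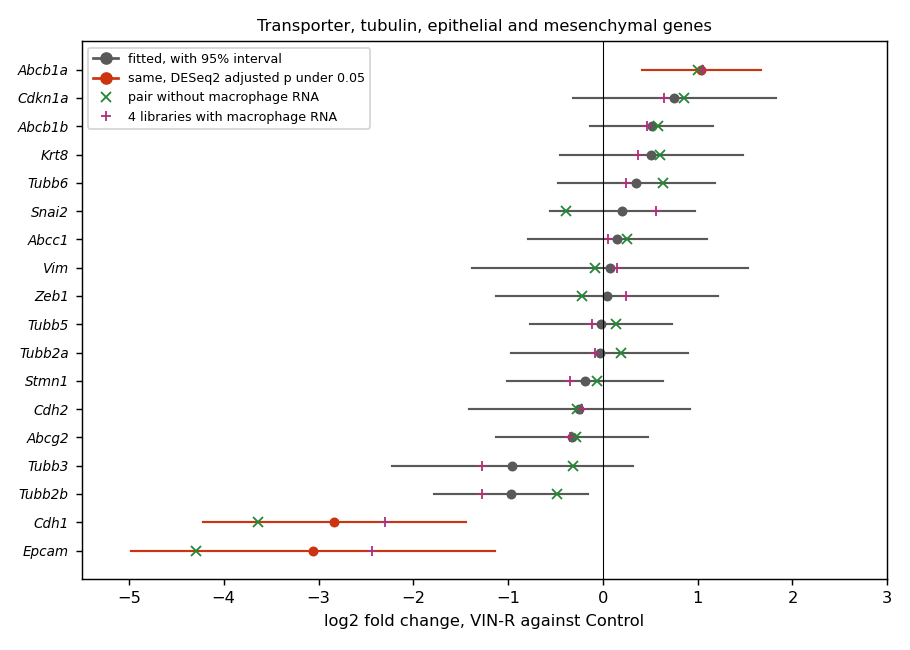
Fitted log2 fold change of VIN-R against Control with its 95% interval for 18 genes of drug export, tubulins, and epithelial and mesenchymal state, with Cdkn1a. Crosses give the difference between Control 1 and VIN-R 3, plus signs the difference between the other 4 libraries. Abcb1a, Cdh1 and Epcam (red) were called by DESeq2, and none of the 18 by edgeR.

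Epithelial junction and identity genes made up the list with the most genes below Control in every library. Of 45 tested, 38 had negative fold changes and 20 lay below Control in every library, against 5.08% of all genes. Their median log2 fold change was -1.79 (all genes 0.01), or -1.65 over 44 genes when Cdh3 and Crb3, at 0 counts in VIN-R, were set to the bound that 3 counts over the group give and Ovol2, at or under that floor in both groups, was left out. edgeR called 0 of them, with 22 lower (all genes 3.08%) and 0 higher at an unadjusted p under 0.05. DESeq2 called 5 lower (all genes 0.548%). The levels were low in both lines. Only 20 of the 45 reached a mean of 5 CPM in Control or VIN-R. Of these, 15 had negative fold changes, with a median of -0.39, and 6 lay below Control in every library. For the other 25 the median was -2.20, and 14 lay below Control in every library. Many of the low genes passed the filter through the ERI-R libraries, so the counts over all 45 lean on that line. When only the 6 libraries entered, 29 were tested, 23 were negative and the median was -1.06. In that fit 13 of the 29 were lower at an unadjusted p under 0.05, beside 914 of all 13025 genes in either direction.

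Cdh1, the E-cadherin of adherens junctions, had 12.9, 11.7 and 7.08 CPM in Control and 0.92, 3.38 and 0.96 CPM in VIN-R. The log2 fold change was -2.83 (interval -4.22 to -1.45, DESeq2 adjusted p = 9.7e-04, edgeR adjusted p = 0.22). Epcam, an adhesion molecule of simple epithelia, had 10.2, 8.13 and 4.63 CPM against 0.50, 2.19 and 0.44 CPM, with a log2 fold change of -3.06 (interval -4.98 to -1.13, DESeq2 adjusted p = 0.021, edgeR adjusted p = 0.45). For both genes VIN-R 2, the library with the most macrophage RNA, was the highest VIN-R library. In bulk RNA, fewer cells of a kind and less RNA per cell cannot be told apart, so a level of 1 CPM of Cdh1 does not show whether every cell holds a little or a few cells hold much.

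Tight junction and protease-inhibitor genes followed. Cldn4, a claudin of tight junctions, had 16.2, 7.38 and 12.7 CPM in Control and 0.75, 0.55 and 6.13 CPM in VIN-R (DESeq2 adjusted p = 2.2e-04, edgeR adjusted p = 0.16). Cgn, the junctional plaque protein cingulin, had 9.18, 7.13 and 7.69 CPM in Control and 2.26, 1.005 and 6.05 CPM in VIN-R (DESeq2 adjusted p = 0.011, edgeR adjusted p = 0.26). Spint1, an inhibitor of the epithelial protease matriptase, had 3.73 ± 1.16 CPM in Control and 1.01 ± 0.72 CPM in VIN-R (SD, n = 3 each; DESeq2 adjusted p = 0.013, edgeR adjusted p = 0.27). In Cldn4, Cgn and Spint1 it was VIN-R 3, without macrophage RNA, that lay closest to Control. The log2 difference between the libraries without macrophage RNA was -1.39 for Cldn4, -0.59 for Cgn and -1.43 for Spint1, against -3.75, -2.23 and -2.30 between the others. Over the whole list the median was -0.65 without and -1.69 with macrophage RNA. The part of the macrophage RNA in this gap was not tested.

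The abundant structural genes of the list showed no such gap. Krt8 and Krt18, the keratins of simple epithelia, had log2 fold changes of 0.51 and 0.52, with overlapping libraries. Krt7 had 0.67, the junction plaque gene Jup -0.22, the tight junction scaffold Tjp1 -0.41 and the junctional adhesion gene F11r -0.03, all with overlapping libraries and uncalled by both tools.

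**Figure D4:**
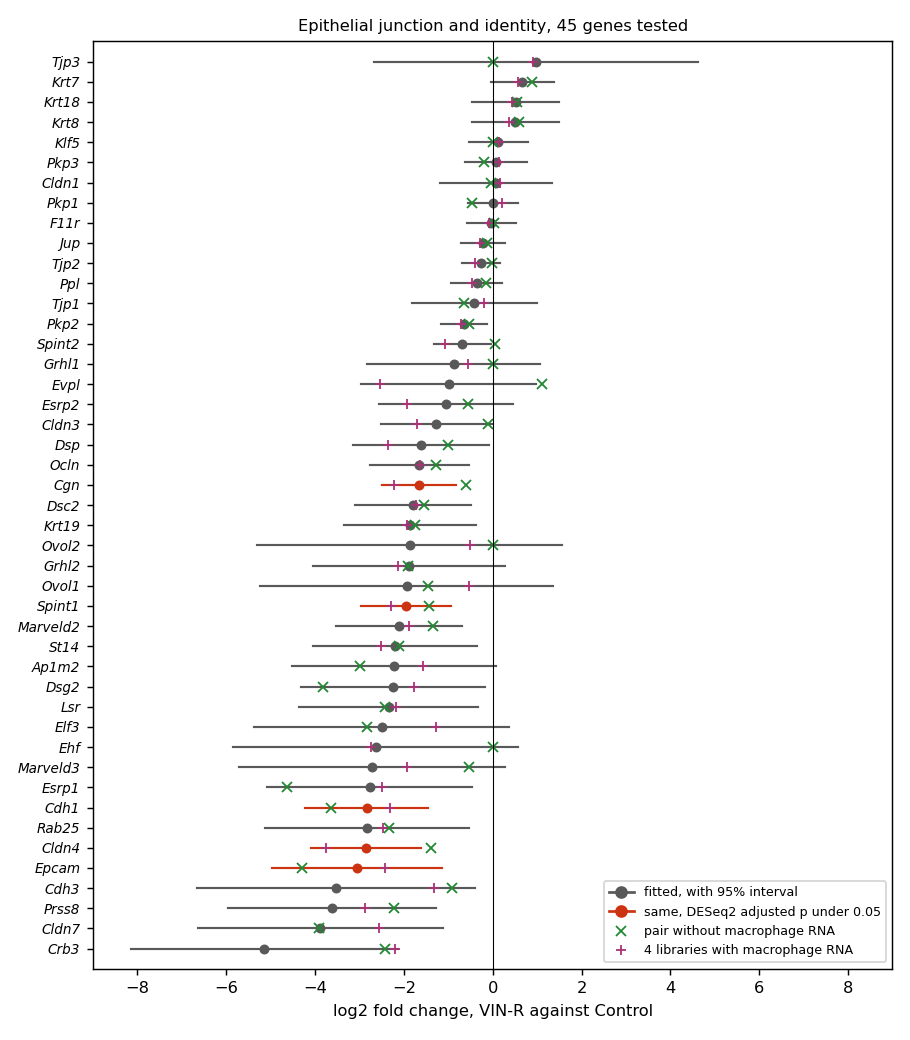
Fitted log2 fold change of VIN-R against Control with its 95% interval for the 45 epithelial junction and identity genes tested, in order of size. Crosses give Control 1 against VIN-R 3, plus signs the other 4 libraries. Of the 45 points, 38 lie below 0, and the 5 red ones were called by DESeq2. On the 6 libraries alone 29 genes passed the filter, 23 of them negative.

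The upstream sequences of 4 genes with lower levels are shown because the letters CAGGTG, an E-box that repressors such as Zeb1 and Snai2 are known to bind, recur in epithelial promoters. Ildr2 is not in the epithelial list. Unlike Epcam and Cldn4, it was lower in ERI-R than in Control (log2 fold change -7.67, against 4.87 and 1.77). Each run is the 250 bases before the start site, from RefSeq on GRCm38.p6, 5′ to 3′ on the gene's strand, with CAGGTG or its reverse complement CACCTG in capitals. The windows are chr1:166253889-166254138 (plus) for Ildr2, chr17:87635729-87635978 (plus) for Epcam, chr5:134946935-134947184 (minus) for Cldn4 and chr2:119237110-119237359 (plus) for Spint1.
Ildr2: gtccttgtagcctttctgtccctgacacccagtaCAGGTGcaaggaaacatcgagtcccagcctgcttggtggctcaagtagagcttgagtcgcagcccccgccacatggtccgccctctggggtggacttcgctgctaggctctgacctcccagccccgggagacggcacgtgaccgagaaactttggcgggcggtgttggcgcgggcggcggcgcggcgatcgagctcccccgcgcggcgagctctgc
Epcam: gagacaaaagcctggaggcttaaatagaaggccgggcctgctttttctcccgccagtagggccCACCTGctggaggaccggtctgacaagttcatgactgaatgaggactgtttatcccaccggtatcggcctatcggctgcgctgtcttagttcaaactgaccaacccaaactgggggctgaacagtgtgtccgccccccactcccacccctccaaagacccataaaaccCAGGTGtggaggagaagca
Cldn4: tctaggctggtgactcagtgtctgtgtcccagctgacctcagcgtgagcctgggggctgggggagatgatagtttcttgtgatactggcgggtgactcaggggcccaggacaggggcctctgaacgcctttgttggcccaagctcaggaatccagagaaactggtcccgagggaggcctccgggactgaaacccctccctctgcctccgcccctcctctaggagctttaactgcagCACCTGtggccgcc
Spint1: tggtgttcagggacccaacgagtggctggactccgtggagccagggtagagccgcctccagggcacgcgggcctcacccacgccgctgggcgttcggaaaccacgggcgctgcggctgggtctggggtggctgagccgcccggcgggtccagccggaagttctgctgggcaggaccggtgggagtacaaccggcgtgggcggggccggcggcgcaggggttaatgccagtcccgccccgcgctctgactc

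Epcam held 2 matches, Ildr2 and Cldn4 1 each and Spint1 none. Of 32851 promoter entries in the table, 17.2% held the letters on either strand within these 250 bases. Promoter entries were found for 25 of the epithelial genes, in 31 entries, of which 17 held a match (54.8%). The share was not split by direction of change in VIN-R, so it does not bear on the lower levels there. A match is a run of letters and not a measured binding site, and a part of any repressor in these levels was not tested. Cdh1 and Tnfrsf26 had no entry. Of the factors known to bind these letters, neither Zeb1 nor Snai2 was called, and their intervals allow differences of about 1 log2 unit. Zeb1 had 65.9, 65.2 and 71.9 CPM in Control and 74.9, 88.1 and 56.7 CPM in VIN-R (log2 fold change 0.05, interval -1.12 to 1.22), and Snai2 5.13, 9.56 and 14.3 CPM against 18.4, 16.4 and 3.91 CPM (0.21, interval -0.56 to 0.97).

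The mesenchymal genes did not move as a group. Vim had a log2 fold change of 0.08 (interval -1.38 to 1.53), the fibronectin gene Fn1 of -0.18 (interval -0.96 to 0.60) and Twist1, a mesoderm regulator, of 0.23 (interval -0.29 to 0.76). Cdh2, N-cadherin, stood at 116 ± 13.1 CPM in Control and 98.1 ± 3.05 CPM in VIN-R (SD, n = 3 each), lower in every library but with a log2 fold change of -0.25 (interval -1.42 to 0.92). Of 31 mesenchymal genes tested, both tools called 0, with 1 higher and 0 lower at an unadjusted p under 0.05 and a median of 0.08. The 20 transcription factors of the epithelial-mesenchymal transition likewise gave 0 calls by both tools, 1 higher and 1 lower at an unadjusted p under 0.05, and a median of 0.19. Over all genes these shares were 1.73% higher and 3.08% lower. The lower transcription factor was Prrx1, a limb and mesenchyme homeobox gene, at 109 CPM in Control and 43.5 CPM in VIN-R on average.

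Further genes called by DESeq2 alone were chosen after the edgeR counts were known, and are given one by one, not as tested groups. Cck, the peptide hormone cholecystokinin, had 9.76, 1.76 and 1.22 CPM in Control and 54.5, 24.7 and 85.8 CPM in VIN-R. Its log2 fold change was 4.09 (interval 2.77 to 5.40, DESeq2 adjusted p = 3.2e-09, edgeR adjusted p = 0.076). Pthlh, the parathyroid hormone-related protein that breast cancer cells can secrete in bone, had 5.93, 3.52 and 1.66 CPM in Control and 49.0, 17.0 and 26.4 CPM in VIN-R. The log2 fold change of Pthlh was 3.05 (interval 1.63 to 4.46, DESeq2 adjusted p = 3.8e-04, edgeR adjusted p = 0.20). Libraries without overlap were a condition of the choice of Cck and Pthlh.

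Cadps2, a priming factor of secretory vesicles, had 4.41, 4.44 and 3.32 CPM in Control and 19.1, 30.4 and 29.4 CPM in VIN-R (DESeq2 adjusted p = 1.9e-04, edgeR adjusted p = 0.16). Fgf13, a fibroblast growth factor homologue that stays inside the cell and binds sodium channels, had 2.46, 3.77 and 2.27 CPM against 19.8, 15.3 and 9.45 CPM (DESeq2 adjusted p = 1.0e-05, edgeR adjusted p = 0.14). The bone morphogenetic protein genes parted. Bmp2 stood at 20.7 ± 1.87 CPM in Control and 56.7 ± 18.6 CPM in VIN-R, and Bmp7 at 2.32 ± 1.03 and 0.40 ± 0.17 CPM (SD, n = 3 each, DESeq2 adjusted p = 0.010 and 0.040, edgeR adjusted p = 0.26 and 0.35). Of the 48 genes of TGF-beta, activin and BMP signalling tested, 33 had negative fold changes, 5 lay below Control in every library (all genes 5.08%) and 1 above (all genes 3.47%). edgeR called 0 of them, with 2 higher (all genes 1.73%) and 7 lower (all genes 3.08%) at an unadjusted p under 0.05. DESeq2 called Bmp2 higher (all genes 0.288%) and Bmp7 lower (all genes 0.548%). The Notch ligand gene Jag2 had 7.52, 5.62 and 3.496 CPM in Control and 1.00, 0.46 and 2.58 CPM in VIN-R (DESeq2 adjusted p = 0.00165, edgeR adjusted p = 0.19).

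Col4a6, a chain of basement membrane collagen IV, had 53.3, 36.0 and 39.3 CPM in Control and 6.86, 5.85 and 5.83 CPM in VIN-R. Its log2 fold change was -2.80 (interval -4.13 to -1.47, DESeq2 adjusted p = 1.9e-04, edgeR adjusted p = 0.21). Its head-to-head neighbour Col4a5 had 97.1 ± 17.5 and 72.2 ± 17.7 CPM (SD, n = 3 each), with overlapping libraries and a log2 fold change of -0.51 (interval -1.40 to 0.39). Serpinh1, the collagen chaperone HSP47, had 38.1 ± 6.54 CPM in Control and 10.6 ± 3.81 CPM in VIN-R. Fermt1, the integrin activator kindlin-1, had 29.7 ± 4.92 and 7.45 ± 3.62 CPM, and Mrc2, a collagen uptake receptor, 85.8 ± 28.5 and 28.6 ± 12.2 CPM (SD, n = 3 each). DESeq2 called all 3 lower (adjusted p = 3.2e-04, 9.4e-07 and 0.010), and edgeR none (0.15, 0.076 and 0.37). Of 22 collagen chain genes, 16 had negative fold changes, with a median of -0.22 and 0 calls by edgeR. At an unadjusted p under 0.05, 4 were lower (all genes 3.08%), and DESeq2 called 1 lower, Col4a6 (all genes 0.548%).

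Pax6, an eye and brain transcription factor, had 5.64, 7.30 and 7.25 CPM in Control and 1.34, 0.73 and 1.62 CPM in VIN-R (DESeq2 adjusted p = 1.8e-04, edgeR adjusted p = 0.15). Zfp618, a zinc finger gene, had 6.79, 5.12 and 6.03 CPM against 0.42, 0.37 and 1.18 CPM (DESeq2 adjusted p = 6.7e-07, edgeR adjusted p = 0.065), and Sgce, epsilon-sarcoglycan, 24.7 ± 4.34 CPM against 4.29 ± 1.27 CPM (SD, n = 3 each; DESeq2 adjusted p = 7.6e-10, edgeR adjusted p = 0.10). Of 18 Hox genes tested, 16 had negative fold changes, with a median of -0.60. Their levels were low, and only 5 of the 18 reached a mean of 5 CPM in Control or VIN-R. Hoxa3 stood at 7.18 ± 0.54 CPM in Control and 2.23 ± 0.44 CPM in VIN-R (SD, n = 3 each; DESeq2 adjusted p = 0.039, edgeR adjusted p = 0.43). Of the 18 Hox genes, 5 lay below Control in every library (all genes 5.08%), and edgeR called 0, with 3 lower at an unadjusted p under 0.05 (all genes 3.08%). DESeq2 called 1 lower, Hoxa3 (all genes 0.548%).

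The Wnt list had 33 of 43 genes negative and a median of -0.39 (-0.42 without the 2 genes at or under 3 counts in both groups). Of the 43, 10 lay below Control in every library (all genes 5.08%) and 1 above it (all genes 3.47%). edgeR and DESeq2 called 0, and 4 were lower (all genes 3.08%) and 1 higher (all genes 1.73%) at an unadjusted p under 0.05. The noncanonical receptor gene Ror2 had 12.3 CPM in Control and 4.92 CPM in VIN-R on average, and the feedback gene Axin2 2.51 and 1.34 CPM. Guidance genes had 34 of 50 negative with a median of -0.30, 0 calls by edgeR and 6 lower at an unadjusted p under 0.05 (all genes 3.08%). DESeq2 called 2 of them lower (all genes 0.548%), Ntn1 and Ephb2, a receptor of the ephrins (38.4 ± 11.1 and 18.0 ± 4.82 CPM, SD, n = 3 each).

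The p53 targets (29 tested, median -0.00), the unfolded protein and integrated stress responses (40 tested, median 0.05) and the genes of cholesterol and fatty acid synthesis (35 tested, median -0.06) held 0 genes called by either tool, and 0, 1 and 0 genes at an unadjusted p under 0.05 (all genes 4.81%). Cdkn1a, the p53 target p21, had 82.8, 193 and 137 CPM in Control and 174, 370 and 150 CPM in VIN-R, with overlap and a log2 fold change of 0.75 (interval -0.31 to 1.82). Detoxification genes had 30 of 42 positive with a median of 0.21, 0 edgeR calls and 3 higher at an unadjusted p under 0.05 (all genes 1.73%). DESeq2 called 1 of them higher (all genes 0.288%), Aldh3a1, an aldehyde dehydrogenase, whose levels of 98.5, 22.1 and 19.7 CPM in Control and 70.7, 46.2 and 248 CPM in VIN-R overlapped. In each line the library without macrophage RNA was the highest.

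Immune genes were at higher levels in the libraries with macrophage RNA. All 38 interferon-stimulated genes and all 24 tested macrophage markers had positive fold changes, with medians of 0.69 and 0.61, but 0 were called by either tool and 0 lay above Control in every library. At an unadjusted p under 0.05 edgeR gave 1 higher interferon-stimulated gene and 0 macrophage markers (all genes 1.73% higher). The interferon-stimulated genes averaged 1.94 log2 CPM in Control 1 and 2.54 in VIN-R 3, against 6.81 and 5.42 in Control 2 and 3 and 4.96 and 7.83 in VIN-R 1 and 2. The macrophage markers differed by a median of 0.00 between the libraries without macrophage RNA and 0.15 between the others. For the interferon-stimulated genes these medians were 0.51 and 0.23. The part of macrophage RNA in the interferon values was not tested. Cytokine genes had 35 of 39 positive (median 0.45, 0 edgeR and 0 DESeq2 calls, 2 higher at an unadjusted p under 0.05, all genes 1.73%). They averaged 1.04 log2 CPM in Control 1 and 1.31 in VIN-R 3, and between 5.09 and 6.72 in the other 4 libraries.

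Mtap, a methionine salvage enzyme encoded near Cdkn2a on chromosome 4, differed among the VIN-R libraries. It had 18.9, 14.8 and 7.87 CPM in Control, but 0.92 and 7.95 CPM in VIN-R 1 and 2 and 0 counts in VIN-R 3. The groups overlapped, and neither tool called it (log2 fold change -2.92, interval -5.64 to -0.21, edgeR adjusted p = 0.94). PAC-R had a like pattern, with 66, 50 and 1 counts of Mtap in PAC-R 1 to 3, the last without Lyz2. Among the VIN-R libraries Mtap ranked as Lyz2 did, but in Control it was highest in Control 1, which had no Lyz2. The part of macrophage RNA in these values was not tested. Cdkn2a had 4 counts over the 3 Control libraries, all in Control 2, and 0 over the 3 VIN-R libraries. Among the VIN-R libraries, Mtap, Cdh1, Epcam and the epithelial splicing regulator Esrp1 were all highest in VIN-R 2 (Esrp1 at 0.08, 1.28 and 0 CPM). Other epithelial genes went the other way: Cldn4, Cgn and Spint1 were highest in VIN-R 3, where Mtap had 0 counts, and Krt8 was lowest in VIN-R 2. The gene Mtap was singled out after its values were seen.

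The lines selected with other drugs were set beside VIN-R for some of the named genes. Between VIN-R and PAC-R, edgeR called 0 of 14227 genes (0%), with 254 (1.79%) at an unadjusted p under 0.05, and DESeq2 called 17 (0.119%). Both lines share the Control libraries, and their own changes against them are given side by side. Ildr2 had -2.94 in VIN-R and -1.29 in PAC-R on the log2 scale, Myh10 -1.83 and -1.29, Tnfrsf26 2.18 and 1.72, Abcb1a 1.04 and 0.77, and Cdh1 -2.83 and -1.12. The direct differences of VIN-R from PAC-R were -1.65, -0.54, 0.46, 0.27 and -1.71, none called by edgeR. Of the 119 genes that DESeq2 called between VIN-R and Control, 113 had the same sign in PAC-R, and shared Control libraries favour the same sign. Pax6 had -2.44 in VIN-R and -3.00 in PAC-R, Cldn4 -2.85 and -2.60, and Zfp618 -3.26 and -2.33. The changes were further apart for Cck (4.09 and 2.03) and Col4a6 (-2.80 and -0.70). None of these 5 was called by edgeR in PAC-R against Control. Between VIN-R and ERI-R, edgeR called 2250 genes higher (15.8%) and 1976 lower (13.9%). Cdh1 was lower by 7.01 log2 units and Epcam by 7.92 in VIN-R than in ERI-R. Ildr2 went the other way, higher by 4.74 in VIN-R, as ERI-R held 0.10 CPM of Ildr2 and 237 CPM of Cdh1 on average. Myh10, which fell in VIN-R, was lower there by 3.93 than in ERI-R, and Tnfrsf26 was higher by 3.35.

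Small shifts were shared by neighbouring genes of some chromosomes. Genes with at least 5 CPM in any group were placed in windows of 10 Mb, and 211 windows held at least 20 of them. The window medians of the log2 fold change ran from -0.22 to 0.47, and 90% lay between -0.16 and 0.20. The 3 windows of chromosome 6 from 120 Mb on had 3 of the 4 highest medians. There, 129 of 143 genes had positive fold changes (90.2%, all such genes 51.5%), with a median of 0.38, and 22 lay above Control in every library against 1 below. Of all 11680 genes with at least 5 CPM, 383 lay above and 545 below. The median difference from the Control mean was 0.44, 0.34 and 0.24 in VIN-R 1 to 3 and 0.04, 0.06 and -0.03 in Control 1 to 3. Between 110 and 120 Mb on the same chromosome 47 of 57 genes were positive, with a median of 0.19, and 8 lay above Control in every library against 0 below. Below 110 Mb the median was -0.04 over 350 genes.

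Of the 41 genes that DESeq2 called higher, 5 lay on chromosome 6 from 120 Mb on, namely Bcl2l14, Ccdc91, Cops7a, Magohb and Pthlh. The stretch holds 143 of the 11680 genes placed. DESeq2 called 37 of the 11680 higher, and 0.288% of all genes tested. Another 4 (Aifm1, Arhgap36, Fgf13 and Pgrmc1) lay between 30 and 60 Mb on chromosome X, where 51 of 60 genes were positive with a median of 0.31. PAC-R, against the same Control libraries, had medians of 0.35 in the chromosome 6 stretch and -0.05 in the chromosome X stretch. The chromosome X medians by library were 0.43, 0.62 and 0.17 in VIN-R and -0.21, 0.086 and 0.12 in Control. Along chromosome 11 all 12 windows had positive medians, against 95 of all 211 windows, with 0.14 over 971 genes. ERI-R and PAC-R, against the same Control libraries, had medians of 0.12 and 0.04 there. The library medians of chromosome 11 overlapped (0.094, 0.023 and 0.20 in VIN-R, 0.063, 0.019 and -0.084 in Control). Chromosome 15 had 0.16 over 466 genes, also with overlap (0.18, -0.013 and 0.30 against 0.11, -0.031 and -0.097). The windows were drawn after the data were seen and were not tested.

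**Figure D5:**
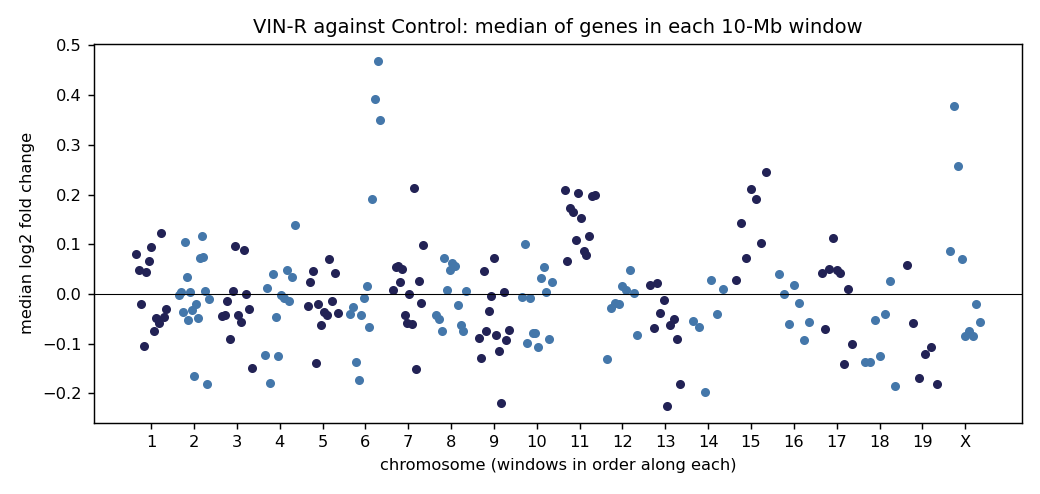
Median log2 fold change of VIN-R against Control (vertical axis) of the genes in each of 211 windows of 10 Mb, in order along each chromosome (horizontal axis). The 3 windows at the end of chromosome 6, with medians between 0.35 and 0.47, and 1 of chromosome X, at 0.38, stand above the others, which end at 0.26.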

How the data were processed

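Polyadenylated RNA of 12 libraries was measured, 3 per group, and 6 of them are described here. The authors deposited RSEM gene tables, which hold expected counts (estimated read pairs per gene, not normalized) and TPM, per the file headers. The submitters' processing notes name bcl2fastq 2.20.0.422, cutadapt 2.4, STAR 2.7.2b, RSEM 1.3.2 and GRCm38. No annotation or strand setting is named in those notes, so antisense overlaps cannot be told apart.

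Expected counts were rounded, which changed 15.3% of values above 0. All 12 libraries entered 1 edgeR 4.0.16 quasi-likelihood fit (R 4.3.3, limma 3.58.1; TMM, filterByExpr, robust) with group means and macrophage RNA (Lyz2 above 100 CPM of all counts) as covariate. Residual degrees of freedom were 7, and the common BCV (spread between replicates) was 0.352. DESeq2 1.42.0 was the alternative test. Intervals are the fold change ± its SE times the t quantile that bounds the central 95% of the distribution. The floor was 3 counts. Log2 CPM used a prior count of 1. The fits were tested on simulated data.

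Genes were named by a rule: the 12 largest rises and falls among edgeR calls with at least 5 CPM and no overlap of both groups' libraries. The rule added up to 2 and 2 calls per list, genes called alike against all other groups (0 found) and 18 preset genes. Added after seeing the calls were the largest DESeq2 calls, also with at least 5 CPM and no overlap. For genes that entered by these conditions, lack of overlap was set by the choice and is no added support. Other genes named were chosen after their values were seen. Members, lists (39, holding 1253 matched genes) and tests were chosen with earlier results of these data known. Deviations of libraries numbered alike correlated at -0.36, 0.74 and -0.73 (-0.42, 0.091 and -0.17 with the covariate removed), so the numbers were not taken to pair libraries.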

Additional observations from a re-analysis of the deposited data

Results flagged for a closer look

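The changes of 31 of the 41 genes named by the rule differed between VIN-R and ERI-R, by the direct contrast of both lines in the same edgeR fit (Benjamini-Hochberg adjusted p under 0.05, a test that 29.7% of all genes passed). On the log2 scale, VIN-R minus ERI-R was 4.74 for Ildr2, -3.93 for Myh10 and 3.35 for Tnfrsf26. Of the export pumps, Abcb1a differed by 4.03 and Abcc1 by 1.91. Epithelial genes gave -7.01 for Cdh1, -7.92 for Epcam and 1.56 for Krt8. Mesenchymal genes gave 4.46 for Vim, 4.71 for Cdh2, 4.28 for Zeb1 and 1.90 for Snai2. Of the beta-tubulins, Tubb2b gave 4.59, Tubb3 5.28 and Tubb2a -1.84. Ribosomal protein genes took 16.7% of all counts in ERI-R 3 and at most 9.01% elsewhere, and its part in these differences was not tested. Of the genes named for their DESeq2 calls, those higher in VIN-R than in ERI-R were Cck (8.75), Vmn2r79 (6.80), Txk (6.60), Arhgap36 (5.54), Prl3d2 (5.44), P2ry12 (5.03), Pax6 (5.02), Padi2 (4.70), Sgce (4.69), Pthlh (4.64), Inmt (4.43), Grik2 (3.75), Tox3 (3.32) and Col4a6 (2.35). Cldn4 (-4.62) and Zfp618 (-3.65) were lower. Higher than in ERI-R does not mean raised: Ildr2, Prl3d2, Pax6, Sgce, Grik2, Tox3 and Col4a6 fell in VIN-R against Control and fell further in ERI-R. For Pax6 these falls were -2.44 and -7.46. Groups of 3 libraries are too small for a test of single libraries that stand apart.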

How the results depend on the processing

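Against 1 gene higher and 2 lower, the fit on the 6 libraries called 0 and 3 (C130074G19Rik, Col4a6 and Ildr2), the continuous macrophage score 3 and 5, no filter 7 and 18, and DESeq2 41 and 78. The 9 libraries without ERI-R gave 9 and 12, and without ERI-R replicate 3 10 and 19. The fits with no covariate, with the 8 libraries with macrophage RNA, with total counts alone and with the 4 Control and VIN-R libraries with macrophage RNA called 0 and 0 (381, 759, 627 and 526 genes at an unadjusted p under 0.05). The fit with the replicate number as a block also called 0 and 0, where edgeR gave 511 genes at an unadjusted p under 0.05. Leaving out each library in turn gave 0 to 0 genes higher and 0 to 0 lower, with 450 to 700 genes at an unadjusted p under 0.05. DESeq2 size factors and a filter of 1 CPM kept 1 and 2, the same genes.

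Of the genes named by the rule, for which alternatives were run, those whose sign turned were called by neither tool. Without a covariate Tubb2a was 0.0085 and Tubb5 0.010, with total counts Zeb1 was -0.0056, without a filter Tubb5 was 0.0089, and with the replicate block Tubb2a was 0.0025. Leaving out 1 library at a time gave log2 fold changes from -0.20 to 0.41 for Abcc1, -0.59 to 0.11 for Cdh2, -0.062 to 0.87 for Krt8, -0.073 to 0.59 for Snai2 and -0.70 to 0.057 for Stmn1. It gave -0.28 to 0.29 for Tubb2a, -0.36 to 0.29 for Tubb5, -0.13 to 0.37 for Vim and -0.19 to 0.56 for Zeb1. The cause was not tested. Negative epithelial genes ran from 22 of 29 tested to 41 of 45. With 3 libraries per group and a median interval half-width of 0.79 before adjustment over 14227 genes, an uncalled gene is not shown to be unchanged, at 2-fold or more as well.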
